A study of Mus musculus with 2 samples.

Results

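Genes known as markers of striatal neurons, 9 in number, were followed in single nuclei of the mouse medial prefrontal cortex. They were Rarb, Rgs9, Scn4b, Sh3rf2, Isl1, Foxp1, Bcl11b, Meis2 and Adora2a, out of 31053 genes in the table. They were taken by name from all 23 cluster columns and from the average of each genotype, to see how far each was restricted to cluster 6. They had been chosen on the levels in these same cluster and genotype columns, so every level, share and ratio of the 9 genes is a description and carries no test. The nuclei came from male mice labelled NPAS2 knockout or wild-type littermate, all killed at zeitgeber time 20 under 12 h of light a day, with no allele, strain or age named. NPAS2 is a clock transcription factor, and the study concerns dopamine synthesis in this region and napping. Tissue of 4 mice was pooled per genotype into 1 library, so no difference between libraries has a replicate check.

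Spiny projection neurons are the main output neurons of the striatum, the large forebrain nucleus that lies beneath the cortex. They are inhibitory cells that arise in the ventral forebrain, and their 2 main classes, of the direct and the indirect pathway, carry different dopamine receptors. Transcription factors that set up these neurons are joined in the adult by signalling proteins that they hold at high levels. The cortex itself consists mainly of excitatory projection neurons and of interneurons that are not spiny projection neurons, although several of the transcription factors also act there.

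The libraries, called KO-labelled and WT-labelled below, held 7161 and 5578 nuclei at estimated depths of 3274 and 4033 UMIs (unique molecular identifiers, each counting 1 RNA molecule) per nucleus. Each level below is the average, over nuclei, of counts scaled to 10000 per nucleus. Ranges in parentheses are 95% counting intervals on estimated UMIs, and they cover counting error only. A mean from 3 UMIs in a whole library corresponds to 0.00128 in the KO-labelled library and 0.00133 in the WT-labelled one. The targeted gene was not lower where the label says knockout, and the deleted part is not stated, so it does not check the labels. Npas2 was at 1.39 in the KO-labelled and 1.29 in the WT-labelled library (ratio 1.08, 1.02 to 1.14). The clusters pool both libraries. Cluster 6 held 683 nuclei, 5.36% of all. Besides the members, 7 other spiny projection markers were listed, among them Drd1, Drd2, Ppp1r1b, Penk, Tac1 and Pde10a, and all were raised in it. Raised here means at least 2-fold above the median cluster, and some low levels past that mark were not counted. In contrast, none of 5 cortical excitatory markers was raised in cluster 6, and their summed level was 0.690. Its inhibitory markers were raised for 3 of 8. Of 5 striatal cholinergic markers, none was counted as raised in it and 2 were at 0. Chat, one of these markers, was at 0.0462 in cluster 6 from about 11 UMIs, a low level that was not counted.

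The stretches just before a listed transcription start of 3 members are shown. Rarb was taken because it encodes a receptor for retinoic acid that is known to act on its own promoter. Rgs9 and Isl1 then show the same window of a narrow and of a shared member. The sequences are 250 bases from RefSeq on GRCm38.p6, 5′ to 3′ in the direction of transcription. They lie at chr14:16575477-16575726 on the minus strand for Rarb, at chr11:109298182-109298431 on the minus strand for Rgs9 and at chr13:116309689-116309938 on the minus strand for Isl1. Capitals mark half-sites of retinoic acid receptors on either strand. The first form searched was AGGTCA, the second was GGGTCA, the third form was AGTTCA and the fourth was written GGTTCA.

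Rarb: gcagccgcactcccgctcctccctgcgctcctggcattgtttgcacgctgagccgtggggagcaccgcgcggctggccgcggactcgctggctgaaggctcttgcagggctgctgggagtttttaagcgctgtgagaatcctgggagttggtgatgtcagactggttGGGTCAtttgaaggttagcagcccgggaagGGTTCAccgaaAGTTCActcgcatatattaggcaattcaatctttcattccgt

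Rgs9: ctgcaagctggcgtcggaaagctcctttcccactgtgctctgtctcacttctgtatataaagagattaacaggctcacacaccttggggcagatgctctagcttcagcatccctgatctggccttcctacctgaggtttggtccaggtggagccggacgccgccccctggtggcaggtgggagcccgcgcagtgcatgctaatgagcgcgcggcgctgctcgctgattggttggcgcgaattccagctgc

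Isl1: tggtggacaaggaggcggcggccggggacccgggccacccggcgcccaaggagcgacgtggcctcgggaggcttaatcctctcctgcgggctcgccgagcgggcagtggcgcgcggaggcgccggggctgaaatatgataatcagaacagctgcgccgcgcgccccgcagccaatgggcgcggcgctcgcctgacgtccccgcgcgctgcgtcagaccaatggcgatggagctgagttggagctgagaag

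The Rarb window precedes a start inside the gene, whose span reaches 16819156 on the minus strand. Which start these nuclei use was not tested. This window held 3 half-sites. The pair nearest the start, one of the fourth and one of the third form, stood on the same strand with 5 bases between them, and the second form lay farther from the start. At least 1 half-site was found in 38.6% of the 32851 windows of this length, whereas a same-strand pair spaced by 5 was found in 29 of them, or 0.0883%. The windows of Rgs9 and Isl1 held none of these letters. A match is a match of letters and not a bound site. Promoter sequences were taken for 7 of the 9 members. Chromosome 18, where Sh3rf2 lies, was left out of the look-up of members, and Adora2a had no entry.

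At least 50% of the signal lay in cluster 6 for 4 members. Signal here is a gene's level times the nuclei of a cluster, summed over clusters. Among 12003 genes with a mean level of at least 0.0461, the median of detected genes, 7 met this mark, or 0.0583%. The members were selected on such values, so nothing is read from that difference. Sh3rf2 (ENSMUSG00000057719), a ubiquitin ligase with SH3 domains, held 85.7% of its signal in cluster 6, where its level was 1.07. It was at 0 in 14 of the other 22 clusters, and its next highest level was 0.0395 in cluster 11. The ratio of those levels was 27.0 (10.7 to 94.5). The level in cluster 11 rests on about 6 UMIs. A level from 3 UMIs would be 0.0661 in cluster 14 and 0.738 in cluster 22, so zeros in such clusters do not show absence.

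Rarb (ENSMUSG00000017491, chromosome 14, 16430839 to 16819156, minus strand, mm10), the retinoic acid receptor beta, held 73.9% of its signal in cluster 6 at a level of 15.5. It was listed above 0 in all clusters. Over the other 22 clusters its median was 0.268, and its lowest level was 0.0803 in cluster 18. The next highest level was 1.19 in cluster 11, so cluster 6 stood 13.0-fold (10.9 to 15.6) above it. The values in clusters 18, 21 and 22 rest on about 3, 3 and 1 UMIs. In cluster 8, which raised 5 of 5 oligodendrocyte markers, Rarb was at 0.118. RNA free in the droplets can give such UMIs, and its part in the levels outside cluster 6 was not tested, so levels of this size are not read as expression.

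Rgs9 (ENSMUSG00000020599, chromosome 11, 109225355 to 109298129, minus strand) encodes a regulator that speeds up the switching off of G proteins, and its long form is known from striatal neurons. It had a level of 5.58 in cluster 6 and held 60.8% of its signal there. The next level was 0.490 in cluster 13, and the ratio was 11.4 (8.65 to 15.2). Its median over the other clusters was 0.248, so 39.2% of the signal lay outside cluster 6 at low levels, among them 0.0637 in cluster 8. The level in cluster 6 was 27.4-fold above the mean of all nuclei outside it.

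Adora2a (ENSMUSG00000020178, chromosome 10, 75316877 to 75334784, plus strand), an adenosine receptor of indirect-pathway neurons, had a level of 0.424 in cluster 6 and held 58.5% of its signal there. Cluster 22, with 20 nuclei, listed 0.357, which equals a single UMI in 1 nucleus, and the ratio of 1.19 to it had an interval of 0.223 to 34.9. Among clusters of at least 50 nuclei, cluster 14 came next and cluster 6 was 3.105-fold higher. Cluster 6 was 24.9-fold above the mean outside it. With every cluster given equal weight, its share was 34.5%. Which cluster ranks second for this gene is not resolved at this depth.

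**Figure D1:**
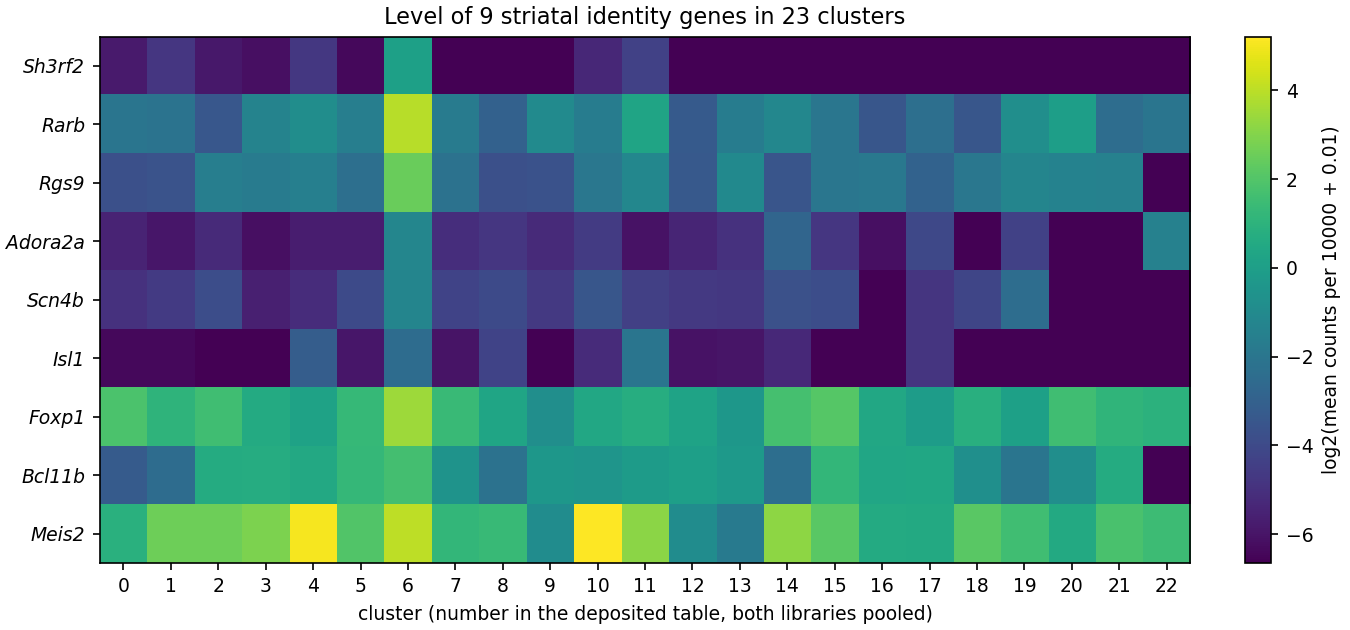
Level of each of the 9 genes in each of the 23 clusters, drawn as colour on the scale log2(mean counts per 10000 + 0.01), with clusters numbered as in the deposited table. Sh3rf2, Rarb and Rgs9 stand alone in cluster 6, whereas Meis2 is highest in clusters 10 and 4 and Isl1 in cluster 11.

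Scn4b and Isl1 lay between the narrow and the broad genes. Scn4b (ENSMUSG00000046480, chromosome 9, 45138395 to 45154152, plus strand), a beta subunit of voltage-gated sodium channels, had a level of 0.412 in cluster 6 against 0.182 in cluster 19, a ratio of 2.27 (1.005 to 6.31). It held 38.6% of its signal in cluster 6 and was at 0 in 4 clusters. The rest was spread at a median level of 0.0298 over the other clusters.

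Isl1 (ENSMUSG00000042258, chromosome 13, 116298281 to 116309689, minus strand), a homeodomain factor known in direct-pathway and cholinergic neurons of the striatum, was not highest in cluster 6. Cluster 11 had a level of 0.234 (0.152 to 0.344), cluster 6 followed with 0.170 (0.118 to 0.237), and cluster 4 had 0.104. These rest on about 34, 40 and 24 estimated UMIs, and the intervals of clusters 11 and 6 overlap. Isl1 was at 0 in 10 clusters and at a single UMI in 7. Clusters 4, 6 and 11 together held 84.7% of its signal, and cluster 6 alone held 31.2%. Cluster 11 was led by Prdm16, Baiap3, Tacr1 and Nos1, and 3 of 5 cholinergic markers were raised in it. They were Slc5a7 at 0.188, Chat at 0.0774 and Lhx8 at 0.123, from about 27, 11 and 18 UMIs. The same 3 were raised in cluster 17, with Slc5a7 at 0.0931, Chat at 0.0767 and Lhx8 at 0.191. In cluster 12, 2 were raised. Chat also had about 11 UMIs in cluster 6, with 25.5% of its signal there against 25.8% in cluster 11. The summed level of those 5 markers was 0.0227 in the KO-labelled and 0.0793 in the WT-labelled library. Cluster 4 was led by Dnah11, Adamts19 and Vipr2.

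The other 3 transcription factors were spread over many clusters. Foxp1 (ENSMUSG00000030067, chromosome 6, 98925338 to 99522721, minus strand), a forkhead factor also present in excitatory cortical neurons, was highest in cluster 6 at 11.2 and reached 4.26 in cluster 15, a ratio of 2.62 (2.29 to 3.02). Cluster 0 alone held 19.7% of its signal, against 22.7% for cluster 6. The lowest level of Foxp1 was 0.571 in cluster 9, and the median of the other clusters was 1.74. Bcl11b (ENSMUSG00000048251, chromosome 12, 107910403 to 108003602, minus strand), a zinc-finger factor known in spiny projection neurons and in subcerebral cortical neurons, had a level of 3.21 in cluster 6, with 2.36 next in cluster 5 and 2.29 in cluster 15. Cluster 6 was 1.36-fold (1.22 to 1.51) above cluster 5 and held 16.6% of the signal. Its median over the other clusters was 0.808, and it was at 0 in cluster 22.

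Meis2 (ENSMUSG00000027210, chromosome 2, 115863064 to 116065839, minus strand), a homeodomain factor of the ventral forebrain, was highest elsewhere. Its level was 37.0 (35.5 to 38.5) in cluster 10 and 33.3 (32.5 to 34.2) in cluster 4, compared with 16.5 (15.9 to 17.04) in cluster 6. Cluster 10 was led by Top2a, Cdca7 and Igfbpl1. Cluster 4 held 31.9% of the Meis2 signal and cluster 6 10.8%. In its other clusters the level ran down to 0.275 in cluster 13, with a median of 3.22.

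Cluster 6 was the highest for 7 of the 9 genes, and for 3.17% of the 12003 genes above that floor. The median share of signal in cluster 6 was 38.6% over the 9 genes and 4.95% over all genes above the floor. The 3 members Rarb, Foxp1 and Meis2 were listed above 0 in every cluster, as were 56.4% of genes above the floor. The shares ran from 85.7% for Sh3rf2 to 10.8% for Meis2, with Scn4b and Isl1 between the 4 genes above 50% and the 3 broad factors.

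**Figure D2:**
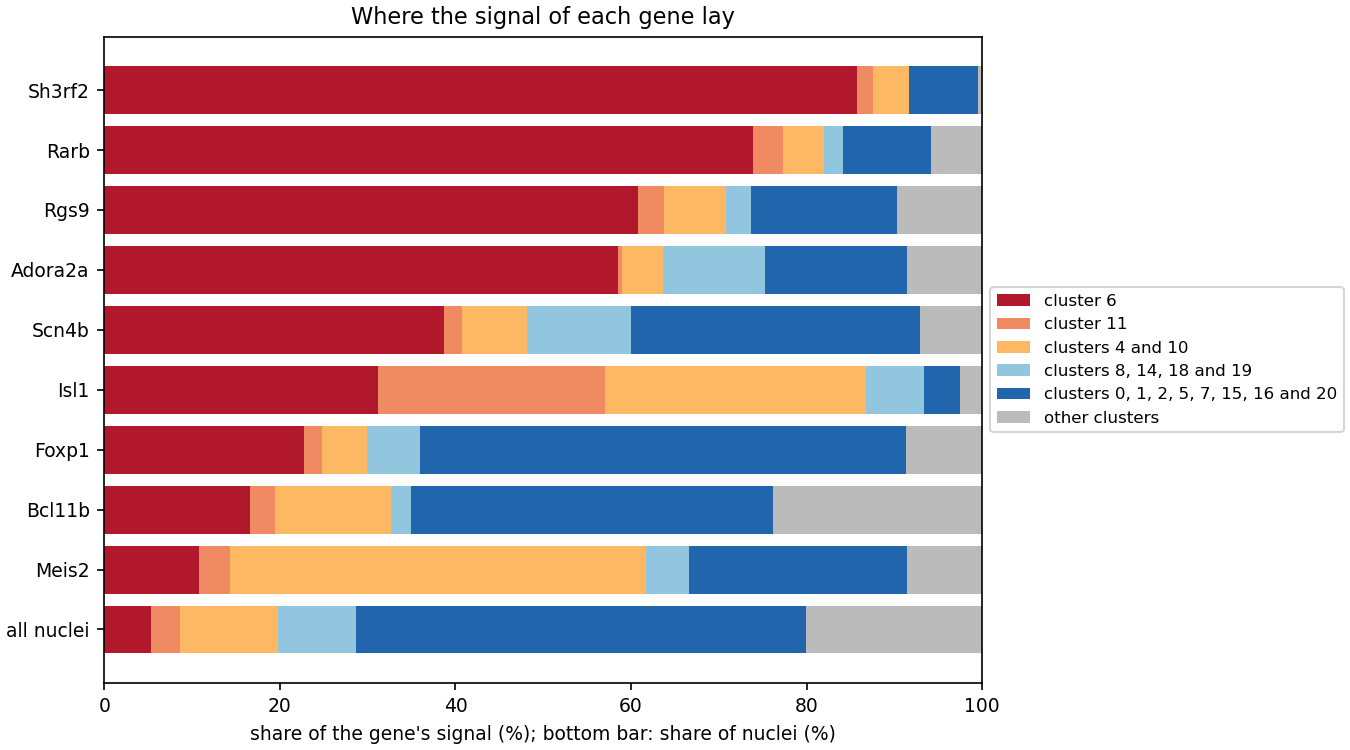
Share of each gene's total signal, in percent, held by cluster 6 and by the other clusters, with the share of all nuclei as the bottom bar. Cluster 6 holds 5.36% of nuclei, 85.7% of the Sh3rf2 signal and 10.8% of the Meis2 signal.

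Between the libraries, 6 of the 9 genes had at least a 2-fold lower level in the KO-labelled library and none a 2-fold higher one, on the log2 scale with a pseudocount of 0.01. The same marks were met by 2.37% (lower) and 0.567% (higher) of the genes above the floor. Isl1 had 0.00265 (0.000872 to 0.00613) in the KO-labelled and 0.0633 (0.0524 to 0.0758) in the WT-labelled library, a level 23.9-fold (10.0 to 73.9) lower from about 6 and 142 UMIs. Adora2a had 0.00720 against 0.0795, 11.05-fold (6.36 to 20.8) lower, from about 17 and 179 UMIs. These 2 genes lay below the floor, so 7 of the 9 passed it. With pseudocounts of 0.1 and 1, the number of members at least 2-fold lower was 3 and 1.

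Sh3rf2 had 0.0139 against 0.135, 9.69-fold (6.49 to 15.02) lower. Scn4b had 0.0153 against 0.111, 7.28-fold (4.93 to 11.1) lower. Rarb had 0.426 against 2.02, 4.75-fold (4.40 to 5.13) lower. These 3 intervals overlap in part, and none of the 3 includes a fold of 1.

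Rgs9 had 0.239 against 0.816, 3.41-fold (3.07 to 3.79) lower. Foxp1 had 2.16 against 3.24, 1.501-fold (1.44 to 1.56) lower. Bcl11b had 1.05 against 1.01, with a ratio of 1.05 (0.983 to 1.12) that includes 1. Meis2 went the other way, at 9.77 against 6.09 and a ratio of 1.60 (1.57 to 1.64). The 9 log2 ratios had a median of -2.22, against -0.06 over all genes above the floor, of which 59.2% were lower. With pooled libraries, fewer nuclei of a type and less RNA per nucleus cannot be told apart in these ratios.

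**Figure D3:**
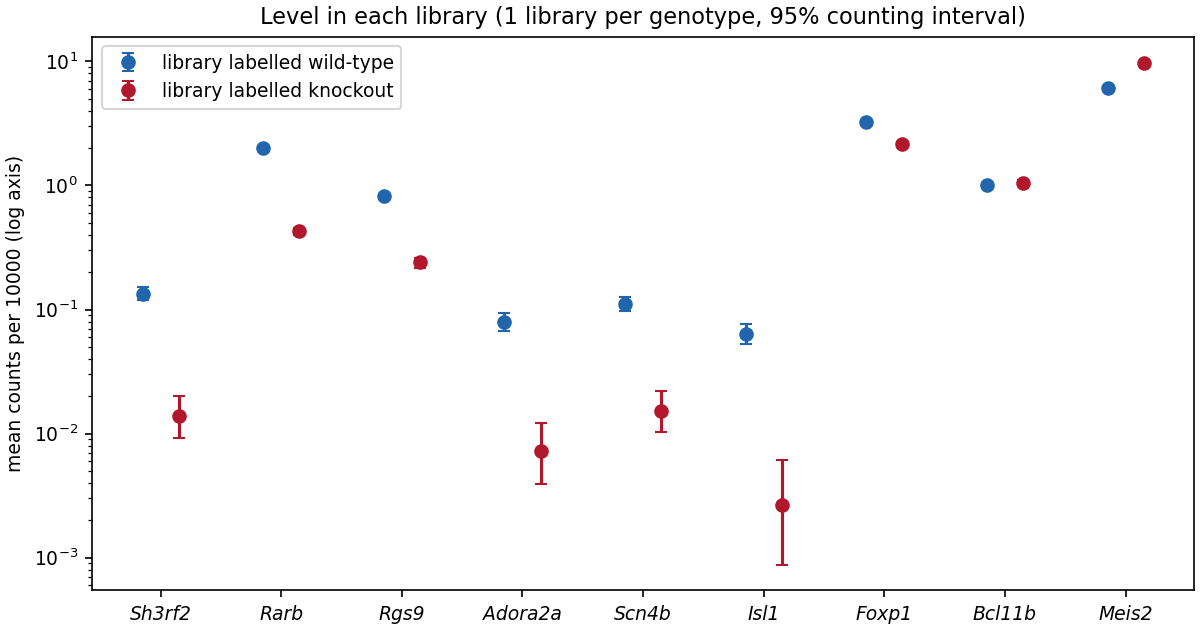
Level of each gene in the KO-labelled and the WT-labelled library, as mean counts per 10000 on a log axis, with 95% counting intervals and 1 library per genotype. The WT-labelled value is higher for 7 genes, from Isl1 at 0.0633 against 0.00265 to Foxp1 at 3.24 against 2.16.

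The order of the genes by log2 ratio depended on the pseudocount. With 0.01, Isl1 had -2.53 and Sh3rf2 -2.60, although their levels were 23.9-fold and 9.69-fold lower. With 0.001 the values were -4.14 for Isl1 and -3.19 for Sh3rf2. An approximate estimate from single UMIs of rare genes put 14.8% of the nuclei of cluster 6 in the KO-labelled library, which supplied 56.2% of all nuclei. A least squares fit on the cluster means put 0% there, and on simulated nuclei the first estimator returned a higher share for this cluster than had been set, so only the direction of this imbalance is used. Other marker sums differed between the libraries as well. Those of oligodendrocytes came to 2.22 in the KO-labelled library and 6.92 in the WT-labelled library, and those of inhibitory neurons to 12.8 and 9.28. The inhibitory sum is mostly Adarb2, at 9.01 in the KO-labelled and 5.85 in the WT-labelled library. Gad1, Lhx6 and Vip were also higher in the KO-labelled library, whereas Gad2, Slc32a1, Sst and Pvalb were lower. The part of these sums in the results was not tested.

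**Figure D4:**
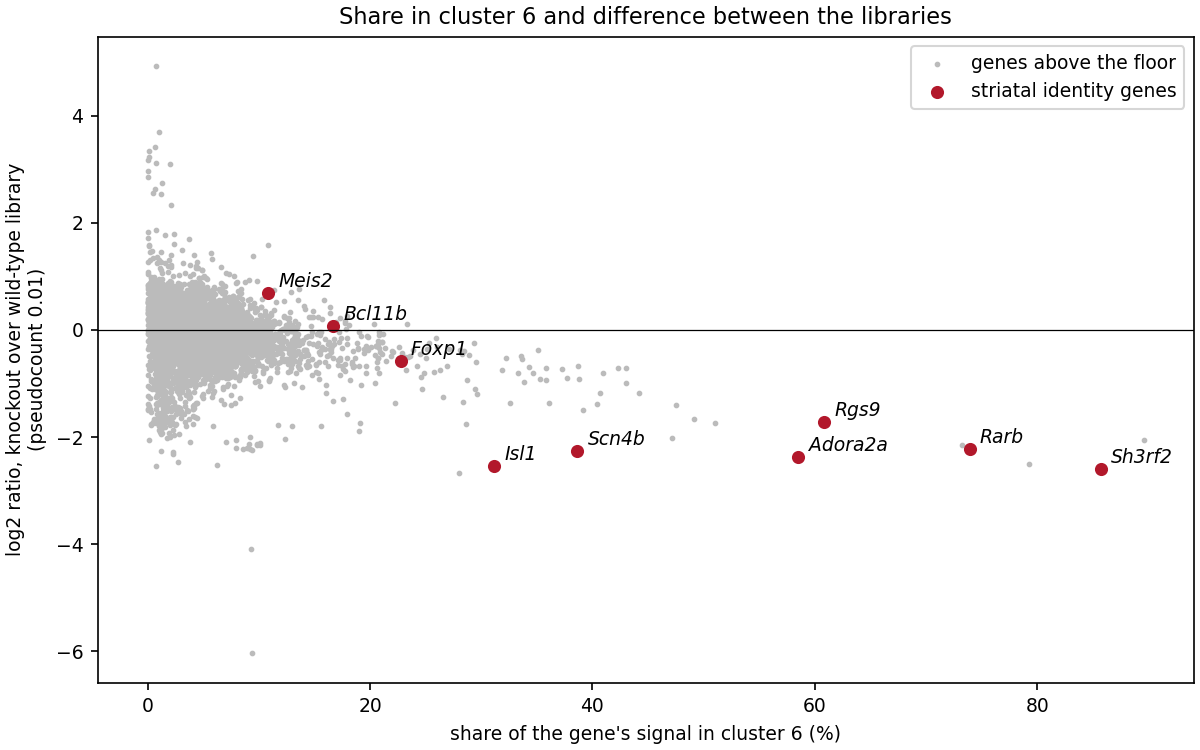
Share of signal in cluster 6, in percent, against the log2 ratio of the KO-labelled to the WT-labelled library with a pseudocount of 0.01, which shrinks the ratios of Isl1, Adora2a, Sh3rf2 and Scn4b most, 1 point per gene. Sh3rf2 lies at 85.7% and -2.60, Isl1 at 31.2% and -2.53, and Meis2 at 10.8% and 0.68.

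The cluster totals limit how much of a gene's signal each library can hold, with no estimate of nuclei. If a cluster holds more of a gene than the whole KO-labelled library does, the remainder belongs to the WT-labelled library. In cluster 6 that library held at least 86.3% of the Sh3rf2 signal, 83.7% of Isl1, 82.2% of Adora2a, 71.2% of Rarb, 61.2% of Scn4b and 55.0% of Rgs9. No limit could be set for Foxp1, Bcl11b or Meis2. Among 9587 genes with at least 20 estimated UMIs in cluster 6, 31 reached 50% by this limit, or 0.323%, and 7 reached 80%, or 0.073%. The members that reached these marks are in the counts, and they were selected on such values, so nothing is read from the counts.

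Isl1 passed the same limit in other clusters. The WT-labelled library held at least 81.6% of its signal in cluster 4 and 80.3% in cluster 11. A limit of 80% was reached by 1 of 9621 genes in cluster 4 (0.0104%) and by 2 of 8225 in cluster 11 (0.0243%). Isl1 is itself the 1 gene in cluster 4 and is among the 2 in cluster 11. The mark lies just below its own values, so nothing is read from these counts. Over clusters 4, 6 and 11 together the limit was 94.0%, and 94.9% of all Isl1 signal was in that library. These limits hold whatever the division of nuclei, and they are limits on the signal in these libraries, of which Isl1 in the KO-labelled one rests on about 6 UMIs. The estimate from single UMIs put 81.3% of cluster 4 nuclei in the KO-labelled library and the least squares fit 100%, so no Isl1 level per nucleus of each library is given for this cluster.

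Lhx8, a cholinergic factor chosen after its values were seen, had 0.000822 in the KO-labelled and 0.0204 in the WT-labelled library, from about 2 and 46 UMIs. It was at 0 in cluster 6, and the WT-labelled library held at least 88.4% of its signal in cluster 11 and 84.7% in cluster 17.

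Outside cluster 6 the WT-labelled library held at least 92.6% of the Isl1 signal, 75.6% of Scn4b and 74.9% of Adora2a. A limit of 70% or more was met by 2.13% of the 17135 genes with 20 UMIs outside cluster 6. Isl1, Scn4b and Adora2a are among those that met it, so nothing is read from that share. The level outside cluster 6 was at least 0.0606 in WT-labelled and at most 0.0169 in KO-labelled nuclei for Scn4b, and 0.0276 and 0.00796 for Adora2a. These levels are below the 0.118 of Rarb in cluster 8 and are likewise not read as expression. The part of RNA free in the droplets in them was not tested. For Rarb and Sh3rf2 the limits were 18.4% and 18.2%, which leave the division outside cluster 6 undetermined.

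**Figure D5:**
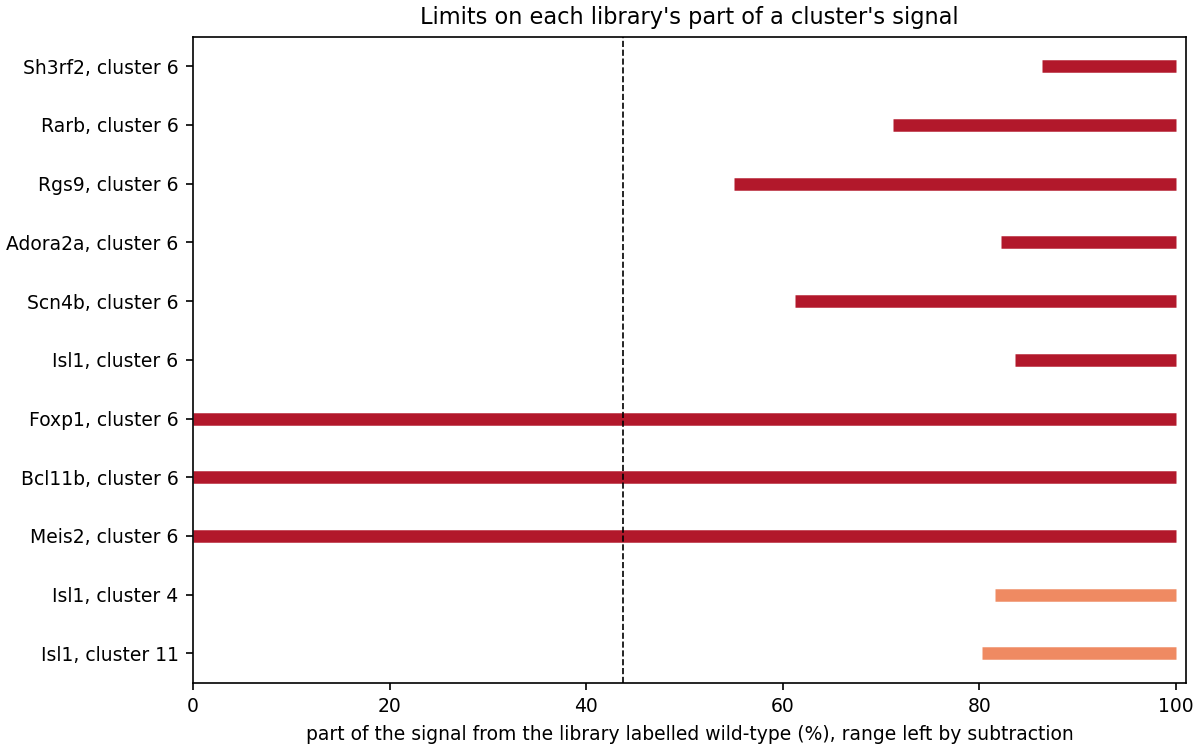
Part of each gene's signal in a cluster, in percent, that can belong to the WT-labelled library, drawn as the range left by subtraction. The dashed line marks that library's 43.8% of all nuclei, and the ranges of Isl1 start at 83.7%, 81.6% and 80.3% in clusters 6, 4 and 11, whereas those of Foxp1, Bcl11b and Meis2 start at 0%.

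The genes whose profile over the 23 clusters was most like each member were found by Pearson's r of log2 levels (in parentheses), as a description in which clusters share libraries and depth. For Sh3rf2 these were Mhrt (0.90), Drd2 (0.77) and Rarb (0.77). Rarb was nearest to Sh3rf2, followed by Adcy5 (0.72) and Mhrt (0.70). Rgs9 was nearest to Tbc1d8 (0.81) and Gnal (0.78), Adora2a to Atl2 (0.79) and Ppp1r1b (0.77), and Bcl11b to Lmo3 and Usp29 (both 0.86). Isl1 was nearest to Gphn (0.74) and Gpr149 (0.72). Between members the highest values were 0.77 for Rarb with Sh3rf2 and 0.75 for Rgs9 with Bcl11b, and the lowest was -0.35 for Bcl11b with Adora2a. By Spearman's rank correlation these pairs were at 0.35, 0.50 and -0.14. On that measure Rarb with Adcy5 was at 0.26, Rarb with Mhrt at 0.24 and Sh3rf2 with Mhrt at 0.63.

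Other striatal projection genes were divided in direction. Of 25 listed, 21 were above the floor, of which 15 had a ratio below 1 and 6 a ratio above 1 of the KO-labelled to the WT-labelled library, 5 at least 2-fold lower, with a median log2 ratio of -0.67. Here and in the lists that follow, lower and higher give the side of 1 on which a ratio fell, whether or not its interval includes 1, as that of Kcnip2 did at 1.07 (0.952 to 1.21). Of all genes above the floor, 59.2% had a ratio below 1 and 2.37% were at least 2-fold lower. Cluster 6 was the highest for 13 of the 21, and for 3.17% of all genes above the floor. The named genes were those with the largest values within cluster 6. They were Pde10a, a phosphodiesterase, at 25.2, Arpp21 at 10.6, the transcription factor Foxp2 at 8.40 and Strn at 4.52. Of these, Arpp21 had its own highest level in cluster 2, and its level in cluster 6 lay below its mean outside that cluster. Among the 5 with the 2-fold difference, named after their values were seen, were the opioid precursors Penk with a ratio of 0.291 and Pdyn at 0.343, the tachykinin precursor Tac1 at 0.288 and Foxo1 at 0.336. Pde10a and Arpp21 had ratios of 1.16 (1.14 to 1.19) and 1.11 (1.09 to 1.13). Of the 6 genes with a ratio above 1, Pde10a and Kcnip2 held 17.3% and 18.1% of their signal in cluster 6. The others held less there, at 5.68% for Sp9, 4.70% for Arpp21, 2.74% for Oprm1 and 2.17% for Spon1.

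Partners of the members fell on both sides of 1 too. Beside these counts, 59.2% of all genes above the floor were lower and 3.17% were highest in cluster 6, and nothing is read from the counts. Of the retinoic acid genes, 2 of 4 above the floor were lower and 2 higher, and Rxrg, a receptor that pairs with retinoic acid receptors, had 0.550 in cluster 6 with 41.0% of its signal there and a ratio of 0.530. Of 8 RGS9 partners and relatives, 5 were lower and 3 higher, or 3 lower after centring on the median gene. Gnb5, which stabilises RGS9, had 1.25 in cluster 6, Rgs7bp, which anchors it to membranes, 4.35, and Gpr158, which binds RGS7, 10.4. Cluster 6 was the highest for these 3 of the 8, with next levels of 0.730 (cluster 21), 3.82 (cluster 12) and 9.53 (cluster 0). Rgs7 had 3.87 in cluster 6 but 11.1 in cluster 1. None of 7 sodium channel genes was highest in cluster 6, and 4 were lower. Of the adenosine genes, 2 of 4 were lower, among them the A1 receptor Adora1 with a ratio of 0.673.

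Among relatives of Foxp1, Foxp2 had a ratio of 0.590 (0.563 to 0.619) and held 23.2% of its signal in cluster 6, while Foxp4 had a ratio of 0.840 (0.636 to 1.11) that includes 1. Bcl11a, the paralog of Bcl11b, was 1.31-fold higher in the KO-labelled library and held 4.66% of its signal in cluster 6. All 6 genes of the Meis and Pbx families were higher, led by Meis1 at 2.90-fold and Pbx3 at 2.59-fold, with a median of 0.50, although the intervals of Meis3 at 1.11 (0.931 to 1.33) and Pbx2 at 1.04 (0.863 to 1.26) include 1. Both SH3RF relatives were higher. These lists were chosen with earlier results known, and none of them is set against chance.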

How the data were processed

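Single nuclei of the medial prefrontal cortex were profiled with 10x Genomics 3′ version 3.1 chemistry, per the labels' protocols, and the build was mm10, per the submitters' processing notes. The authors deposited a linear signal, mean normalized expression per gene, for each library and for 23 clusters. Each column sums to 10000. The tools for alignment, counting and clustering, the filters on nuclei and any doublet removal were not given in the sources used here. Numbers of nuclei were solved from the linear relation between columns, with a largest deviation of 4.87e-08. Values equal to 1 UMI within 1e-06 gave depths, from which UMIs and 95% Poisson or Clopper-Pearson intervals were estimated. Planned intervals on counts were replaced by these, because the table holds no counts. The steps were tested on simulated data, and the division of a cluster's nuclei between libraries is approximate. Log2 ratios used a pseudocount of 0.01, which understates low genes. Members and lists were chosen with earlier results of these data known. Named genes were the members, the 3 genes most like each, up to 4 genes per list by level in cluster 6, and paralogs of members. Others, such as Lhx8, Penk, Tac1, Pdyn, Foxo1 and Kcnip2, were chosen after their values were seen. Some listed genes were counted but are not reported here. GENCODE M21 supplied positions and RefSeq promoters. Python 3.11.15, numpy 2.4.6, scipy 1.17.1, pandas 2.3.3 and matplotlib 3.10.9 were used.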

Additional observations from a re-analysis of the deposited data

How the results depend on the processing

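No paired analysis was possible because there was 1 library per genotype. No direction of a member's log2 ratio reversed under another pseudocount or scaling. The number of genes with at least a 2-fold lower level in the KO-labelled library, 284, became 86 and 11 with pseudocounts of 0.1 and 1, 518 with no filter, 164 with a filter at 0.1 and 829 at 1.5-fold. The 68 genes at least 2-fold higher became 32 and 3 with those pseudocounts and 350 at 1.5-fold. Of the members, 6 were at least 2-fold lower, and 3 and 1 with pseudocounts of 0.1 and 1, since a pseudocount above a gene's own level shrinks its ratio. At 1.5-fold, 1 member, Meis2, was higher. A least squares fit on cluster means put 0% of cluster 6 nuclei and 100% of cluster 4 nuclei in the KO-labelled library, in place of 14.8% and 81.3%. The Isl1 limit in cluster 4 needs nuclei of the WT-labelled library there. The cause of that difference was not tested. Summing clusters without weights moved 7 of 9 shares, to 34.5% for Adora2a and 52.7% for Rgs9. Depth limits Isl1 and Adora2a most, at about 6 and 17 UMIs in the KO-labelled library.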
